A study of Mus musculus with 6 samples.

Results

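Imatinib given to empty-vector Ba/F3 cells growing in interleukin 3 (IL3) was measured as 1 pair of Affymetrix mouse arrays, which are 2 of the 6 arrays of the series. Ba/F3 cells are a murine pro-B line that dies without IL3. Both samples carried the empty pMSCV retroviral vector and were kept in IL3. One was left untreated, and the other received 100 nM imatinib, named Glivec in the labels, for 4 h before RNA was taken. The pair was chosen by these labels alone and not by any measured value. The other 4 arrays held Ba/F3 cells expressing ETV6-PDGFRB or FIP1L1-PDGFRA from a pMSCV vector, each untreated or after the same dose and time of imatinib. The labels call those lines selected and name IL3 for the vector cells only. The fusion and any difference in IL3 therefore cannot be told apart as differences from the vector cells. All cultures shared medium with 10% serum, and 5 µg of RNA entered each labelling reaction. Whether a line was 1 clone or a pool is not given in the sources used here. Each group had 1 array, so the difference between the treated and the untreated vector cells could not be set against a spread of replicates, and the small number of arrays limits its precision.

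Imatinib blocks the ABL, KIT and PDGF receptor tyrosine kinases, with a few further binding partners such as the discoidin domain receptors, the CSF1 receptor and the quinone reductase NQO2. The IL3 receptor has no kinase of its own and signals through the attached kinase JAK2, which phosphorylates STAT5 and feeds the RAS-ERK and PI3K-AKT branches. None of those steps is a known main target of imatinib, and IL3-grown parental Ba/F3 cells are for that reason a usual control for effects of the drug that do not pass through the fusion kinase.

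The kinases that imatinib is known for were low in these cells. Kit, the stem cell factor receptor, had a signal of 7.89 on the untreated and 3.23 on the treated array, Pdgfra read 8.29 and 0.946, and Pdgfrb read 2.08 and 0.56. These MAS5 signals are linear brightness units, and all lie below the signal floor of 20.1 used here, which is the median over the arrays of each array's 50th percentile. Below the floor a signal was treated as having no measured level. Abl1, the cellular ABL kinase gene, was above the floor, at 59.2 on the untreated and 76.4 on the treated array. That is a log2 ratio of imatinib over untreated of 0.37. Abl1 thus passed the smallest limit used here, a brighter array at least 25% above the dimmer one. Nqo2 read 106 and 119, a log2 ratio of 0.17. Bcr read 28.9 and 33.4, and Crkl, an adaptor that ABL phosphorylates, read 200.3 and 212 at its brightest probe set. The second probe set of Crkl went the other way past the 25% limit, at -0.34. Csf1r stood near the floor at 30.9 and 32.8, and Ddr1 at 20.7 and 14.4, while Ddr2 was below the floor on both arrays. Of the 10 genes matched on the list of imatinib targets and their partners, 6 were measured. By their brightest probe sets 5 of these were higher on the treated array, where 52.6% of all genes were higher. The median log2 ratio of the 6 was 0.13, beside 0.01 for all genes. At the brightest probe sets only Abl1 passed the 25% limit, as did 9.17% of all genes.

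The label of a pro-B cell was checked against marker genes. Of 22 matched B-lineage markers, 6 were above the floor: Ptprc, Btk, Tcf3, Cd79a, Cd79b and Igll1. The signalling phosphatase Ptprc read 606 and 660 and the kinase Btk 427 and 392, while Igll1 stood near the floor at 21.5 and 21.1. Defining early B-lineage genes were below the floor on both arrays, among them Pax5, Ebf1, Rag1, Rag2, Dntt, Vpreb1 and Il7r. Erythroid and megakaryocyte markers were more often present, with 10 of 15 above the floor and a summed signal of 3714 without and 3563 with imatinib. That list also had members below the floor on both arrays: Hba-a1, Alas2, Slc4a1, Rhag and Vwf. Mast cell markers had 5 of 16 above the floor, with sums of 1936 and 1794. Kit, Fcer1a, Ms4a2, Tpsab1 and Tpsb2 were among those below it. Myeloid markers had 5 of 22 above the floor, with sums of 640.1 and 619.7. T and NK markers had 1 of 19, Zap70, and stromal markers 3 of 15, with sums of 4063 and 4003 that come almost wholly from Vim and S100a4. The B-lineage sum was 1282 without and 1296 with imatinib, most of it from Ptprc and Btk. The median log2 ratio of the 6 measured B-lineage markers was -0.05. In a bulk sample, fewer cells of a type and less RNA per cell cannot be told apart. The part of any such shift in the results below was not tested.

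Across the genome the treated and untreated vector arrays were close. A gene was represented by its brightest probe set and counted as measured when at least 1 array of the pair lay above the floor, which gave 6674 genes. Their median log2 ratio was 0.01 and the standard deviation (SD) across genes 0.20. Slightly over the even share, 52.6%, were higher on the treated array. At least a 2-fold difference was reached by 9 genes, which is 0.135% of those measured, with 5 higher (0.0749%) and 4 lower (0.0599%). That count rests on the floor: it was 49 with the floor at the 40th percentile, 2 at the 60th and 3 with a pseudocount in its place. At least 1.5-fold was reached by 97 genes (1.45%). The 25% limit was passed by 612 genes (9.17%), of which 351 were higher (5.26%) and 261 lower (3.91%). The same count at 2-fold was 306 of 6852 genes (4.47%) for ETV6-PDGFRB cells and 348 of 6743 (5.16%) for FIP1L1-PDGFRA cells, and their SDs were 0.50 and 0.51. The log2 signals of the 2 vector arrays correlated across genes with r = 0.993, against 0.953 and 0.952 in the fusion pairs. These are descriptions, since genes are not replicates.

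The size of a difference between the vector arrays depended on how bright the gene was. Among 838 genes with a mean signal between the floor and 40, the SD of the log2 ratio was 0.30 and the central 95% of genes ran from 1.48-fold lower to 1.51-fold higher. It narrowed step by step with signal. Between 160 and 320 the SD over 1293 genes was 0.13 and 1.86% of genes passed the 25% limit. Among the 232 genes above 1280 it was 0.07, the central 95% ran from 1.11-fold lower to 1.10-fold higher, and 0 genes passed the 25% limit. Fusion-cell ratios were set against these bands, with each gene kept in its class from the vector arrays. Genes not above the floor on both vector arrays were left out. The ratio lay outside the central 95% of its class for 42.9% of genes in ETV6-PDGFRB cells (2741 of 6391). In FIP1L1-PDGFRA cells the share was 41.0% (2627 of 6400). In the brightest class those shares were 62.1% and 61.6%, and in the dimmest they were 24.1% and 25.3%.

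**Figure D1:**
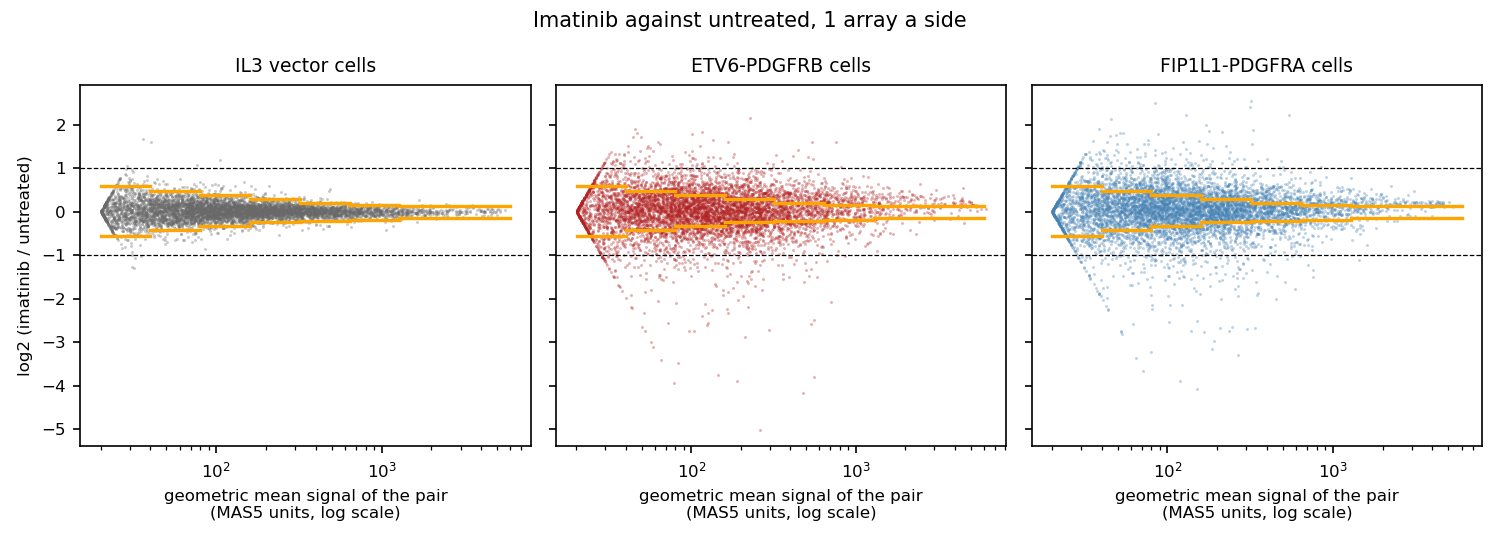
Each point is 1 gene: the x axis is the geometric mean signal of a pair of arrays (MAS5 units, log scale) and the y axis the log2 ratio of imatinib over untreated, for vector cells in IL3 (6674 genes), ETV6-PDGFRB cells and FIP1L1-PDGFRA cells. Orange steps, the same in all 3 panels, enclose the central 95% of vector-cell genes in each brightness class, and dashed lines mark 2-fold. The shares in the text place a gene by its vector-cell signal and not by the x axis of the fusion panels. Vector-cell points form a band that narrows from left to right, while many fusion-cell points lie outside the steps at every brightness.

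The pair was also fitted with limma over all 6 arrays, with the line as a block and separate imatinib terms for the vector cells and for the fusion cells. The only spread this fit can use is the disagreement of the 2 fusion lines, so the vector pair is assumed to vary like them. After Benjamini-Hochberg adjustment over 6808 genes, limma called 0 genes (0%) for imatinib in the vector cells, and the lowest adjusted p was 1. An unadjusted p under 0.05 was reached by 165 genes, or 2.42%. In the fusion cells the same fit called 889 genes (13.1%), 418 that rose (6.14%) and 471 that fell (6.92%), or 174 and 1008 when the arrays were scaled to the spiked hybridisation controls. The test of the difference between the vector and the fusion response called 0 genes (0%). Before adjustment 1179 genes (17.3%) were under 0.05, and after it the smallest p was 0.114. That count was not stable, at 284 genes with the pseudocount, 17 with a trended prior and 10 with the 60th percentile floor. In the vector cells alone the pseudocount gave 1 call, Mpnd (limma adjusted p = 0.0387). No other vector-cell difference passed a test under any setting run, and the words higher and lower are used only of the signals on these 2 arrays.

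The 9 genes past 2-fold with the floor at the 50th percentile were all dim on at least 1 of the arrays. Mpnd, which encodes a protein with a deubiquitinase-type domain, read 11.9 untreated and 64.1 with imatinib. Against the floor that is at least 3.19-fold higher. Nfic, a nuclear factor I transcription factor, read 23.2 and 70.8, a log2 ratio of 1.61. Its other 3 probe sets were below the floor on both arrays, so the difference was seen by 1 probe set only. Rps27, a small-subunit ribosomal protein gene, read 69.7 and 159, a log2 ratio of 1.19. Its signal on the other arrays was 42.4 and 43.5 with ETV6-PDGFRB, against 158 and 138 with FIP1L1-PDGFRA, so it moved between lines as much as within the vector pair. Other ribosomal protein genes are far brighter here (Rps7 read 4538 and 4246), and Rps27 has near-identical gene copies, so its level is uncertain.

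Dennd10 was higher on the treated array, at 52.8 and 111, and Rab15, a small GTPase of endosome recycling, read 6.95 and 41.6, at least 2.07-fold higher. On the lower side Sbf2, a myotubularin-related membrane trafficking protein, read 49.7 and 20.2, a log2 ratio of -1.30. Cysrt1 read 48.2 and 15.5, at least 2.40-fold lower. Mad1l1, the spindle checkpoint protein MAD1, read 46.8 and 22.4, a log2 ratio of -1.06, and Pink1, the kinase that marks damaged mitochondria, read 49.5 and 24.6, a log2 ratio of -1.01. None of the 4 lower genes exceeded 50 on either vector array, and of the 5 higher genes only Rps27 and Dennd10 exceeded 100 on the treated one. Sbf2 differed in opposite directions in the fusion pairs, with log2 ratios of -0.68 and 0.99.

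Genes with a signal of at least 10 times the floor on both vector arrays, 2130 in all, differed less. The highest ratio among them belonged to Usp10, a deubiquitinase that stabilises several proteins including p53. It read 403 without and 582 with imatinib, 1.44-fold higher, a log2 ratio of 0.53. In the fusion pairs Usp10 was lower after imatinib, with log2 ratios of -0.71 and -0.66. The limma test of that difference gave an estimate of 1.21 with a standard error (SE) of 0.19 and an adjusted p of 0.163, or 0.0126 with the pseudocount. Pno1 and Naf1, which act in ribosomal RNA and snoRNA-protein assembly, were also among the 10 highest. Pno1 read 301 and 379 (0.34) and Naf1 300.0 and 368 (0.29). In the fusion pairs both were lower, Pno1 at -0.85 and -0.56 and Naf1 at -0.82 and -0.81. Utp18, another ribosome assembly factor, was lower in all 3 pairs, at -0.37 in the vector cells and -0.99 and -0.80 in the fusion cells. The members of that pathway thus did not share 1 direction in the vector pair.

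Several of these bright genes were read by more than 1 probe set, and the probe sets did not always agree. Snrnp27, a splicing factor gene, had a log2 ratio of 0.47 at its brightest probe set and 0.06 at the other. Ugp2, which makes UDP-glucose, had 0.44 at its brightest, 0.05, 0.05 and 0.18 at 3 others, and went the other way at the dimmest, from 26.7 to below the floor (-0.41 against the floor). For 2610507B11Rik the values were 0.41 and -0.52. Enah, an actin regulator, had 0.31 against -0.10 and -0.03. Rab10, a GTPase of membrane traffic, had 0.34, 0.26 and -0.19, and Anapc1, a subunit of the anaphase-promoting complex, had 0.32 and 0.27. Plcg2, the phospholipase C of B cell signalling, had 1 probe set, at 0.30.

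On the lower side, Hspa9, the mitochondrial HSP70 chaperone, stood out for agreement between its probe sets. Its brightest probe set read 528 and 417 (-0.34), the next 410.0 and 256.0 (-0.68) and a dimmer one 68.6 and 53.9 (-0.35). The last was below the floor. Gata2, a transcription factor of early haematopoietic and mast cells, read 743 and 581 (-0.36), and its other probe set read 548 and 450.2 (-0.28). Nfe2, an erythroid and megakaryocyte transcription factor, read 538 and 425 (-0.34) at its single probe set. Both factors were higher after imatinib in the fusion cells, Gata2 at 0.45 and 0.87 and Nfe2 at 0.77 and 0.91. With limma, the adjusted p of the difference was 0.211 for Gata2 and 0.163 for Nfe2, or 0.0408 and 0.0136 with the pseudocount. Anxa5, the phosphatidylserine-binding annexin, read 1232 and 921 (-0.42) and was lower in the fusion cells as well, at -0.63 and -0.30.

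Rabac1, a RAB acceptor, had the lowest ratio of the bright genes, at 381 and 282 (-0.43). Rheb, the GTPase that activates mTORC1, read 535 and 428 (-0.32), and Psmd3, a proteasome lid subunit, 297 and 233 (-0.35). Rsrp1 was at -0.40, but its other probe sets were at -0.07 and 0.13, and Dctn6, a dynactin subunit, was at -0.32 against 0.13. At its brightest probe set, every one of these 20 bright genes differed by less than 1.5-fold.

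How far 2 probe sets of a gene tell the same story was then asked of all genes with at least 2 of them above the floor on both arrays of a pair. Probe sets of a gene share the RNA, the labelling and the array but not the oligonucleotides. In the vector pair, the log2 ratios of the 2 brightest probe sets correlated across 2488 genes with Pearson's r = 0.0656 and Spearman's rho = 0.0773. They had the same sign in 51.6% of genes. The fusion cells differed from this: the correlation was 0.702 over 2443 genes with 72.2% of the same sign for ETV6-PDGFRB, and for FIP1L1-PDGFRA it was 0.788 over 2414 genes with 78.2%. Among genes whose brightest probe set passed the 25% limit, the second had the same sign in 76 of 138 (55.1%) in the vector pair. The corresponding share reached 85.6% with ETV6-PDGFRB, and FIP1L1-PDGFRA cells had 90.9%. In the vector pair, a difference past the limit at 1 probe set thus came with the same sign at the next only a little more often than not. These are correlations across genes, given as descriptions.

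**Figure D2:**
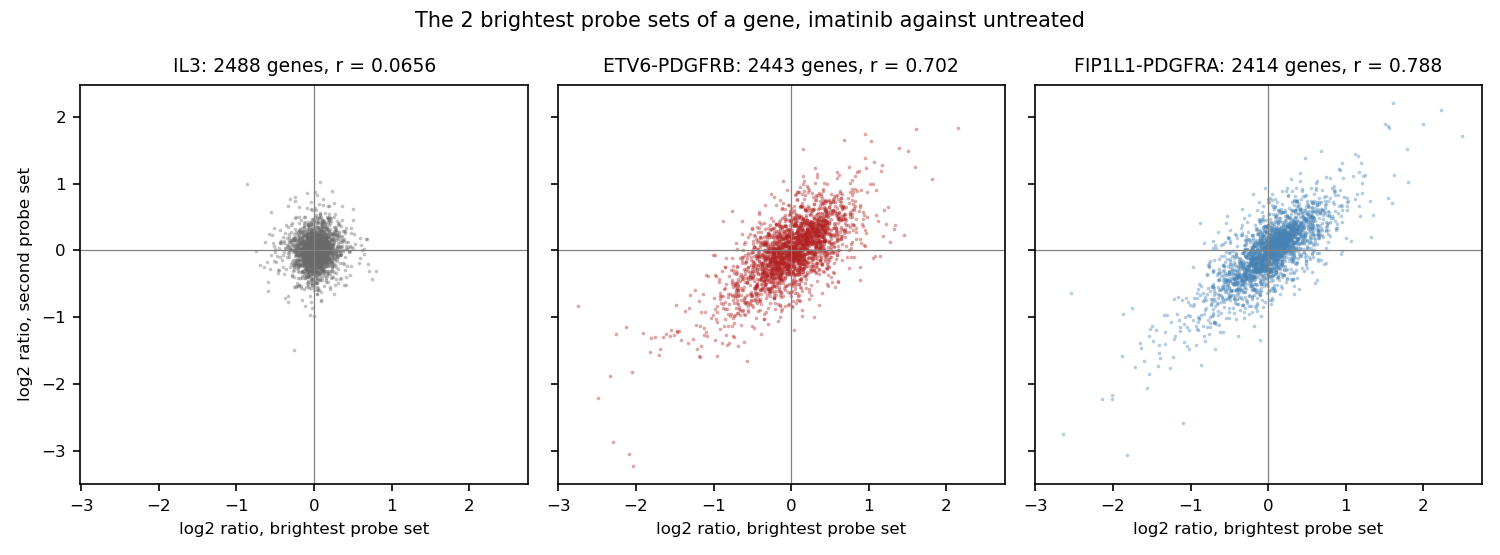
Each point is 1 gene with at least 2 probe sets above the floor on both arrays of the pair: the x axis is the log2 ratio of imatinib over untreated at its brightest probe set and the y axis that at the second. The vector-cell points form a round cloud around 0 (r = 0.0656), and the fusion-cell points lie along a diagonal (r = 0.702 and 0.788).

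In 14 of the 2488 genes every such probe set was past the 25% limit in 1 direction, 7 higher and 7 lower. These genes were picked for this agreement, so the values are a description. The 7 higher were Wdr20, Zfp704, Myo5a, Ahcyl2, Lyrm2, Kdm6a and Vopp1. Wdr20, a partner of deubiquitinating enzymes, read 65.9 and 93.5 at 1 probe set and 24.2 and 37.1 at the other, with log2 ratios of 0.50 and 0.61. Myo5a, the myosin that carries vesicles along actin, read 52.1 and 66.9 (0.36) and 49.9 and 68.1 (0.45). Kdm6a, a demethylase of histone H3, had log2 ratios of 0.33 and 0.38.

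The 7 lower were Rfxank, Klc1, Ppp3cb, Unc45a, Gtpbp2, Kif1b and Hspa9. Ppp3cb, a catalytic subunit of calcineurin, read 114 and 87.5 (-0.38) and 55.6 and 34.1 (-0.71). Klc1, a kinesin light chain, had log2 ratios of -0.59 and -0.47. Kif1b, a kinesin motor, had log2 ratios of -0.33 and -0.77 and Unc45a, a myosin chaperone, -0.39 and -0.35. Apart from Hspa9, the brightest probe sets of these 14 genes lay between 20 and 116 on both arrays, the range in which the SD between the vector arrays was widest.

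The IL3 receptor and its signalling chain were present and little different between the vector arrays. Csf2rb, the shared beta subunit of the receptor, read 1193 without and 1284 with imatinib, and Csf2rb2, the mouse IL3-specific beta subunit, 1530 and 1537. The alpha subunit Il3ra read 39.5 and 34.7, a log2 ratio of -0.18. Jak2, the receptor's kinase, read 93.2 and 111 (0.25), and Jak1 read 289 and 312 (0.11). Stat5a read 121 and 128 (0.08) and Stat5b 79.6 and 97.6 (0.29), the highest ratio of the list. Of the negative regulators, the phosphatase Ptpn6 (SHP-1) read 158 and 188 (0.25) and Inpp5d (SHIP1) 147 and 146. The adaptor Grb2 had the lowest ratio, -0.20, at 319 and 278. All 18 matched genes were measured, with 12 higher, 6 lower and a median log2 ratio of 0.06, where 52.6% of all genes were higher. The 25% limit was passed by 9.17% of all genes and by 0 of these 18. At the second probe sets, which 10 of these genes had, the median was -0.09 with 4 higher and 6 lower.

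Genes that STAT5 is known to drive had a median ratio near 0 between the vector arrays. Cish, a feedback inhibitor that STAT5 induces directly, read 309 without imatinib and 297 with it, a log2 ratio of -0.05. In the fusion cells, by contrast, Cish went from 284 to 56.4 and from 552 to 62.2, log2 ratios of -2.33 and -3.15. Pim1, a survival kinase, read 341 and 314 in the vector cells (-0.12), but its second probe set was past the 25% limit the other way, at 0.42. Id1 read 418 on both arrays, Myc 724 and 722, and Ccnd2, cyclin D2, 858 and 957 (0.16). Socs1 read 85.0 and 76.7 (-0.15) and Socs2 182 and 180. Of the 21 measured members, 10 were higher and 11 lower, and the median was -0.003. At the second probe sets of 11 members the split was 4 higher and 7 lower with a median of -0.02. The brightest probe sets of these 11 gave 6 to 5 and 0.01. By the brightest probe sets, 2 of the 21 passed the 25% limit, as did 9.17% of all genes. The 2 were Csf1 (32.7 and 41.5, 0.35) and Il2ra (27.4 and below the floor, at least 1.36-fold lower), both dim. The medians of the same list in the fusion pairs were -0.87 over 20 measured members and -1.16 over 21, with 9 and 13 of them past 2-fold. The limma difference for Cish was 2.69 with an SE of 0.39 and an adjusted p of 0.163, or 0.00331 with the pseudocount.

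The promoter of Cish is shown because STAT5 is known to act there and because the gene was level in the vector pair and among the 15 largest drops in the fusion pairs. The window runs from 250 bases before to 50 after the gene's start, from RefSeq on build GRCm38.p6, chr9:107296409-107296708 on the + strand. Capitals mark matches to TTCNNNGAA, the STAT core, which reads the same on both strands.

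Cish: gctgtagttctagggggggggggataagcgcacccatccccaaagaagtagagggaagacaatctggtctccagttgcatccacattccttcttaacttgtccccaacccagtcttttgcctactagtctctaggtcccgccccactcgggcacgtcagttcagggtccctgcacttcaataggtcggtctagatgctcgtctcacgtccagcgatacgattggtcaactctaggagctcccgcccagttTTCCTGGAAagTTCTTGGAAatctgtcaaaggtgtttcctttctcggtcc

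The window of Cish held 2 matches, which do not overlap and begin at bases 1 and 12 after the start. The motif was found in 2726 of 32851 RefSeq promoter windows of this length (8.30%), that is in 2582 of 27025 genes (9.55%), and in 5 of the 18 genes of the STAT5 target list that had a window (27.8%). A match is a description of the sequence and not evidence of binding.

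Growth pathways downstream of the cytokine showed the same lack of a common difference. For the ERK branch, Dusp6, a phosphatase that ERK induces, read 281 and 290 (0.04), and Spred1, an inhibitor of RAS signalling, 458 and 451 (-0.02). The immediate early genes Ier2 and Ier3 had log2 ratios of -0.15 and 0.15. Btg2, an antiproliferative gene that is both an immediate early and a p53 target, read 50.8 and 75.6 (0.57), the highest ratio of this list, but its second probe set had -0.18. Nab2, which restrains EGR factors, had a log2 ratio of 0.34. Fos, Jun, Egr1 and Atf3 were below the floor on both arrays. Of 18 measured members 11 were higher, with a median of 0.03, where 52.6% of all genes were higher. At the second probe sets of 6 members the split was 3 to 3 with a median of 0.003. The brightest probe sets of these 6 gave 2 higher to 4 lower and -0.08.

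Nucleolar genes of ribosome biogenesis were all measured, 52 of 52, and split 27 higher to 25 lower with a median of 0.01. Rrp9, a U3 snoRNP protein, was the highest at 127 and 174 (0.45), followed by Tcof1, an RNA polymerase I cofactor, at 89.4 and 118 (0.40). Utp18 was the lowest. The medians in the fusion pairs were -0.84 and -0.71. Across the MYC network of 14 measured genes the vector median was -0.01, with Mycn at 1915 and 2032 and the MYC antagonist Mxd4 the only member past the 25% limit, at 44.9 and 57.1 (0.35). The second probe set of Mxd4 was past the limit the other way, at -0.42.

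Interferon-stimulated genes, many of which act in antiviral defence, were mostly below the floor in the vector cells. Of 42 matched genes, 24 were below it on both arrays, among them Ifit1, Ifit3, Mx1, Usp18, Irf7, Iigp1 and Cxcl10. The 18 measured ones split 8 higher and 10 lower, with a median of -0.005. The same 18 genes had medians of -1.54 and -1.45 in the fusion pairs. Igtp, an immunity-related GTPase, read 47.8 and 36.4 (-0.40), the lowest ratio, and Irf1, a transcription factor of the interferon response, read 57.7 and 45.3 (-0.35). Gbp7, a guanylate-binding protein, was the highest at 49.9 and 60.5 (0.28). Irf9 and Stat2 read 30.1 and 24.3 (-0.31) and 25.7 and 22.5 (-0.19). Igtp signals in the untreated fusion cells were 2015 and 861, so the vector cells began far below them.

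The 30 genes with the most extreme mean response over the fusion pairs were set out in the vector cells in the same way. Of the 15 with the largest drop, 6 were below the floor on both vector arrays: Iigp1, Ifit1, Gbp2b, Rtp4, Irgm2 and Usp18. The other 9 were measured, and none of them passed the 25% limit except Igtp. F2rl2, a protease-activated receptor, read 318 and 326, Metrnl, a secreted factor, 158 and 144, and Clcn5, a chloride transporter, 267 and 230 (-0.21). Of the 15 with the largest gain, Ccng2, a cyclin induced by FOXO factors, read 55.6 on both arrays. Klf1, the erythroid Kruppel-like factor, read 185 and 180, Col5a1 269 and 268, and the chemokine receptor Cxcr4 130 and 129. The 25% limit was passed by 5 of these 15 genes in the vector pair, in both directions, and by 9.17% of all genes. The mean signals of these 5 lay between the floor and 80. The share past the limit was 25.5% of genes between the floor and 40 and 14.6% between 40 and 80. Higher were Tnfaip2 at 59.0 and 84.5 (0.52), Hemgn at 34.3 and 49.2 (0.52) and Mxd4 (0.35, with its second probe set at -0.42). Lower were Ampd3 at 31.5 and 23.1 (-0.45) and Mettl7a2 at 28.6 and 21.8 (-0.39).

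**Figure D3:**
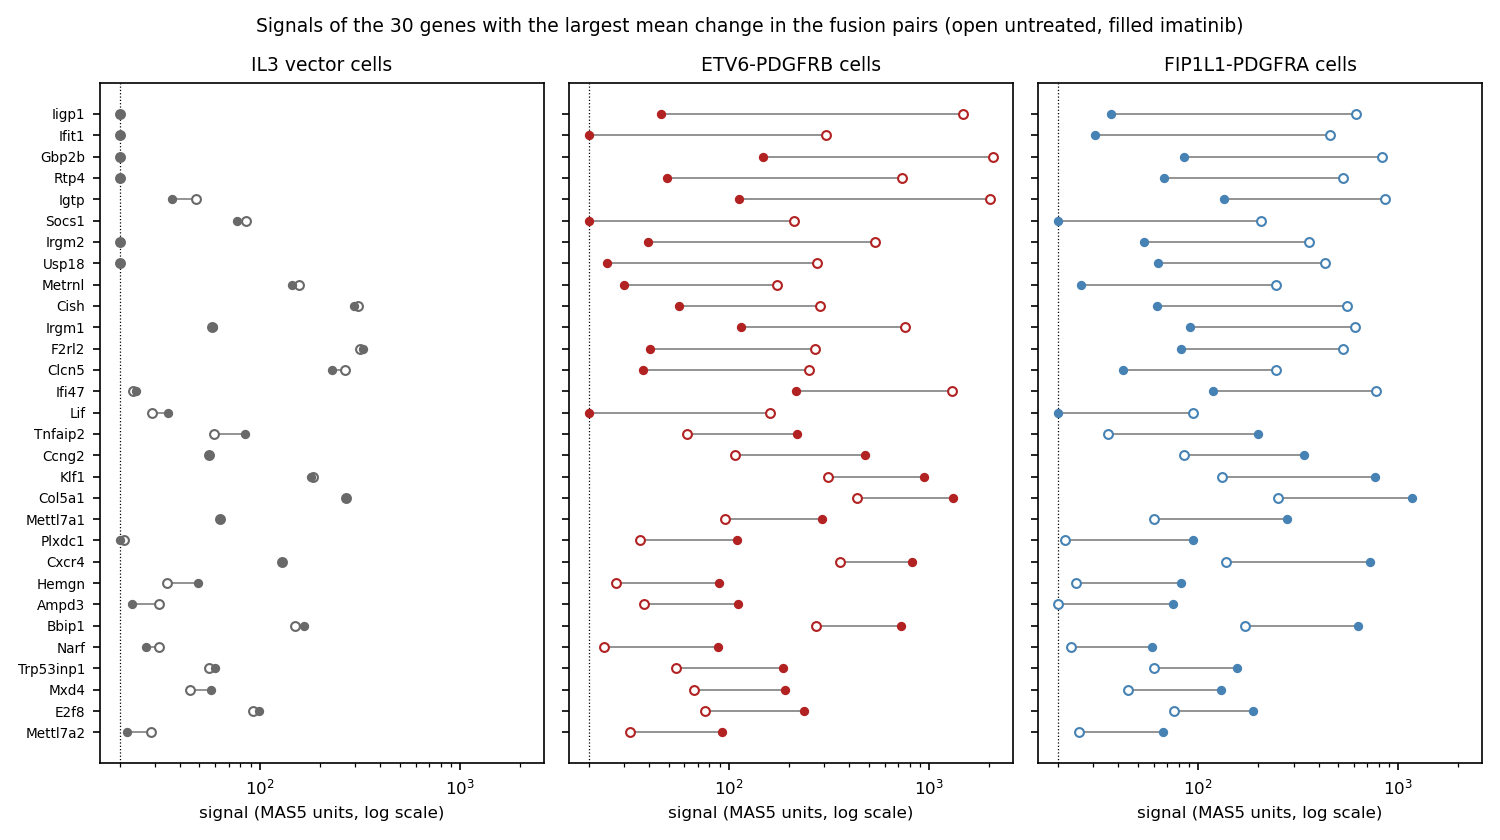
Each row is 1 gene and each panel 1 cell line: open circles are the untreated and filled circles the imatinib signal (MAS5 units, log scale; signals below the floor are drawn at it, and the dotted line is the floor of 20.1). The genes were chosen by the mean response of the fusion cells, where the circles lie far apart; in the vector cells most circles nearly coincide or both lie at the floor, as for Iigp1 and Ifit1, and 6 genes, among them Tnfaip2 and Hemgn, passed the 25% limit.

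Over all genes that limma called in the fusion cells, the medians in the vector pair lay near 0. Of 418 genes that rose, 404 were measured in the vector cells, and their median log2 ratio there was 0.03, against a median of 0.76 in the fusion fit. They split 219 higher and 185 lower, with 34 past the 25% limit higher and 24 past it lower, where 52.6% of all genes were higher and 5.26% and 3.91% of all genes passed the limit higher and lower. Of 471 genes that fell, 444 were measured, with a vector median of -0.01 against -0.82 in the fusion fit, 213 higher and 231 lower, and 16 higher and 17 lower past the 25% limit. The spiked hybridisation controls, which do not depend on the cells, had a median log2 ratio of 0.02 over 18 probe sets in the vector pair, with a range from -0.34 to 0.20. They had medians of 0.15 and 0.29 in the fusion pairs, with all 18 higher on both treated arrays. The part of that shift in the fusion values was not tested.

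Some lists in the vector pair leaned to 1 side. The E2F and G1/S genes, which copy DNA and drive entry into S phase, were higher on the treated array in 38 of 51 measured members, or 74.5%, where 52.6% of all genes were higher. Their median log2 ratio was 0.06. E2f1, a transcription factor of this program, read 34.0 and 53.3 (0.65), the catalytic DNA polymerase epsilon gene Pole 55.1 and 75.2 (0.45), and the origin licensing factor Cdc6 118 and 148 (0.33). These 3 of 51 members passed the 25% limit, as did 9.17% of all genes. Pole2, the second polymerase epsilon subunit, read 163 and 203 (0.32), Uhrf1, which maintains DNA methylation, 212 and 257 (0.28), and the DNA ligase Lig1 184 and 219 (0.25). The brightest members hardly differed: Pcna, the sliding clamp, read 2804 and 2844, and Mcm7 1038 and 1054. Mcm6 was lower, at 773 and 712 (-0.12), and E2f3 had the lowest ratio, -0.23. The list's medians in the fusion pairs were 0.48 and 0.50.

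When the second probe set was read instead, the lean of the E2F list was smaller. Of the 25 members with such a probe set, 13 were higher and 12 lower, with a median of 0.02. The brightest probe sets of the same 25 genes split 18 to 7 with a median of 0.07. In the fusion pairs the second probe sets were higher in 23 of 25 genes in each, with medians of 0.53 and 0.58. The second reading was chosen after the data had been seen.

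Promoters of 2 members are shown to show the E2F motif, which was more frequent in windows of this list than in all windows. Each window is from RefSeq on GRCm38.p6, 250 bases before to 50 after the start. Capitals mark matches to TTTCGCGC or TTTGGCGC, or on the other strand GCGCGAAA or GCGCCAAA, where matches may overlap. Mcm5, a subunit of the replicative helicase, is at chr8:75109259-75109558 on the + strand, and Pole2 at chr12:69228141-69228440 on the - strand.

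Mcm5: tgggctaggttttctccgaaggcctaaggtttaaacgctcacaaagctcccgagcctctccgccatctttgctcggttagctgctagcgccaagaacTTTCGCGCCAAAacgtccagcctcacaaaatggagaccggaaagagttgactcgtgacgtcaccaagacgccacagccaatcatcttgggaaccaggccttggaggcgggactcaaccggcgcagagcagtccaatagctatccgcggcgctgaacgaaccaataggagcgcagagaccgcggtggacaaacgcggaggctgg
Pole2: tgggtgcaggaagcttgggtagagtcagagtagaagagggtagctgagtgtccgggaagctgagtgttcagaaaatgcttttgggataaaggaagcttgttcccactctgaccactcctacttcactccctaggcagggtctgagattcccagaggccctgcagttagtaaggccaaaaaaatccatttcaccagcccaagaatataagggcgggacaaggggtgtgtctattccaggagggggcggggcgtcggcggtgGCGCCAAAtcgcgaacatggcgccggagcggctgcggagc

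Mcm5 held 2 matches that overlap each other, beginning at bases -153 and -149 from the start, and Pole2 held 1, at base 11 after it. The motif was found in 267 of 32851 windows (0.813%), that is in 0.929% of 27025 genes, and in 16 of the 49 E2F list genes with a window (32.7%). Of the members with a match, 14 were measured in the vector pair and 12 of these were higher, with a median of 0.08. Of those without, 29 were measured and 19 were higher, with a median of 0.03. Of all genes, 52.6% were higher. This split was read at the brightest probe sets only, and the lean of the whole list was smaller at the second ones. The difference between members with and without a match was not tested. Mcm5 itself read 586 and 599 (0.03) on the vector arrays. The matches describe these letters only.

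The p53 targets leaned the same way on fewer genes. Of 20 measured members, 16 were higher on the treated array (80%), where 52.6% of all genes were higher. The list's median was 0.11, beside 0.01 for all genes, and 5 members passed the 25% limit. That limit was passed by 9.17% of all genes and by 14.6% of those with signals between 40 and 80, where this list's median signal of 59.9 lies. Btg2 (0.57 at its brightest probe set, -0.18 at the second), the translesion polymerase Polk at 23.7 and 34.3 (0.53), the stress gene Gadd45a at 22.4 and 28.7 (0.36) and the RNA-binding protein gene Zmat3 at 110 and 139 (0.33) were higher, and the DNA damage sensor Xpc was lower at 34.1 and 25.4 (-0.43). Of the brighter direct targets, the CDK inhibitor Cdkn1a read 654 and 688 (0.07) and Ccng1 444 and 473 (0.09). Mdm2 read 120 and 132 (0.14), above the list's median, but its second probe set had -0.23. At the second probe sets of 9 members the split was 3 higher and 6 lower with a median of -0.01, where the brightest probe sets of these 9 gave 6 to 3 and 0.09.

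Genes repressed by PI3K through FOXO factors were spread the widest of these lists. They had a median of 0.08 and split 16 higher to 10 lower (61.5% higher, where 52.6% of all genes were higher). At the second probe sets of 16 members the split was 10 to 6 with a median of 0.02. The brightest probe sets of these 16 gave 10 to 6 and 0.08. Gadd45a and, by its brightest probe set, Mxd4 were at the top of the list and Pink1 and Cdkn1b at the bottom. Cdkn1b, the CDK inhibitor p27, read 40.2 and 26.0 (-0.63). In the fusion cells it went the other way, from 69.3 to 160 and from 42.6 to 101. Bcl2l11, the pro-death protein BIM, was level in the vector cells at 156 and 165, as was Txnip at 643 and 683. The G2/M and mitosis genes split 31 higher to 20 lower (60.8% higher) with a median of 0.03. At the second probe sets of 18 members the split was 10 to 8 with a median of 0.03. The brightest probe sets of these 18 gave 9 to 9 and 0.004. Ndc80, a kinetochore protein, was highest at 47.0 and 64.8 (0.46), and its complex partner Nuf2 lowest (-0.31).

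Other lists leaned lower. The genes of nucleotide and polyamine synthesis were lower on the treated array in 21 of 27 members (77.8%, where 47.4% of all genes were lower), with a median of -0.04. Ctps2 and Ctps, the CTP synthases, read 77.9 and 59.1 (-0.40) and 385 and 327 (-0.24), and Umps, the last enzyme of UMP synthesis, read 167 and 143 (-0.23). The remaining members lay within 0.17 of 0 on the log2 scale, among them Odc1, the first enzyme of polyamine synthesis, at 853 and 842. Proteasome genes were lower in 26 of 38 members (68.4%) with a median of -0.03. Psmd3 (-0.35), Psme3 at 212 and 176 (-0.27) and Psma4 at 1138 and 972 (-0.23) led them. Respiratory chain genes were lower in 42 of 70 (60%) with a median of -0.02, led by Uqcrh, a complex III subunit, at 1310 and 1049 (-0.32), and Sdhd, a complex II subunit, at 739 and 621 (-0.25). The proteasome and respiratory chain genes are bright, with median signals of 709 and 996. All genes between 640 and 1280 had a median log2 ratio of -0.01 in this pair, and those between 40 and 80 had 0.02.

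At the second probe sets the nucleotide list split 6 higher to 8 lower with a median of -0.05, where the brightest probe sets of these 14 genes gave 3 to 11 and -0.06. The proteasome list split 8 to 8 with a median of -0.02, against 4 to 12 and -0.03. The respiratory chain list split 16 to 23 by both readings, with medians of -0.03 and -0.01.

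**Figure D4:**
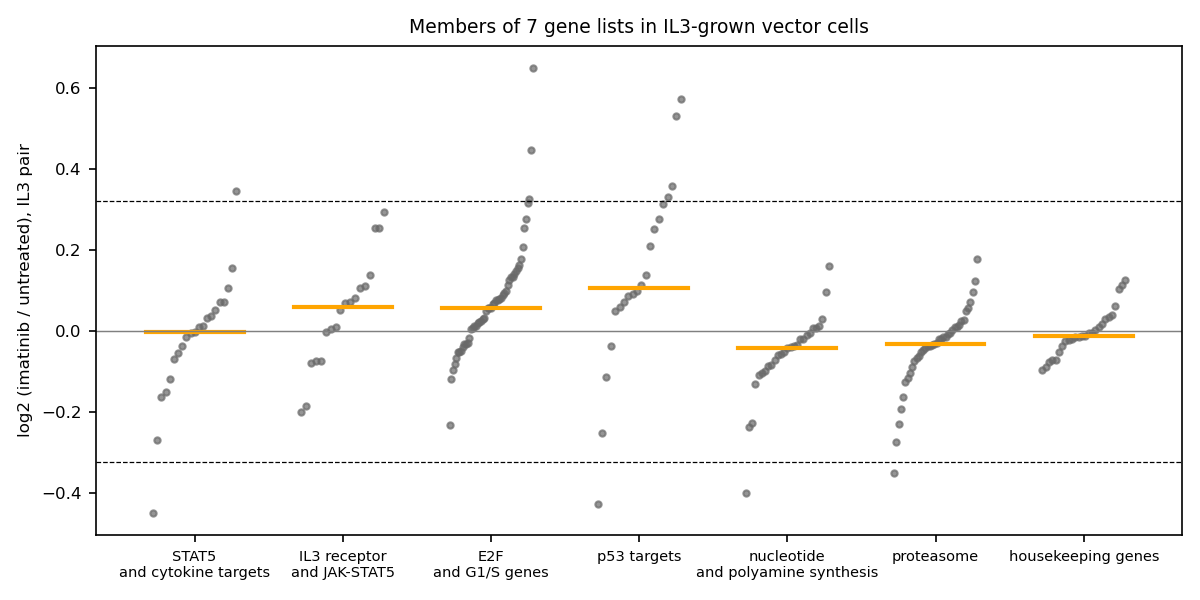
Each point is 1 measured gene of a list and the y axis its log2 ratio of imatinib over untreated in vector cells, sorted within the list; orange bars are list medians and dashed lines mark the 25% limit. E2F and p53 list points lie mostly above 0 and nucleotide and proteasome points mostly below, with few past the dashed lines, and of the 7 lists shown the 26 housekeeping genes have the narrowest spread.

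Housekeeping, ribosomal protein, chaperone and ATF4 lists had medians within 0.02 of 0, beside 0.01 for all genes. The sign of many medians this close to 0 depended on the processing: those of the STAT5 target, ribosome biogenesis, MYC, ATF4, interferon, NF-kappaB and chaperone lists each turned under at least 1 alternative. Some medians further from 0 turned too. With the mean over all probe sets of a gene, the IL3 receptor list went from 0.06 to -0.01 and the MHC class I list from -0.04 to 0.01. The 26 housekeeping genes had a median of -0.01 and an SD of 0.06, from Rab7 at 554 and 519 (-0.09) to Actb, cytoplasmic actin, at 3762 and 4104 (0.13). Cytosolic ribosomal protein genes had a median of 0.02 over 45 genes. Their wide range came from 3 dim genes, Rps27, Rpl27a at 46.5 and 66.6 (0.52) and Rpl39 at 36.1 and below the floor (at least 1.80-fold lower). Chaperones had a median of -0.003 over 39 genes, with Hspa9 lowest and Hspa8, the constitutive HSP70, at 3312 and 3703 (0.16). ATF4 and amino acid genes had a median of 0.002 over 30. Trib3, a stress-induced pseudokinase, was lowest at 51.6 and 34.6 (-0.57), and Psph, of serine synthesis, highest at 71.7 and 93.8 (0.39).

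The BCL2 family had a median of -0.04 over 9 genes, with Mcl1 at 711 and 730 and Bcl2l1 at 129 and 126. Circadian genes had the lowest median of the lists with more than 5 members measured, -0.19 over 11 genes with 7 lower. Cry2 read 52.6 and 40.8 (-0.37), Per2 31.8 and 25.6 (-0.31) and Dbp 38.1 and 33.1 (-0.21), but Clock was higher at 23.6 and 30.1 (0.35), and most members were close to the floor. NF-kappaB targets had a median of -0.01 over 13 genes, with Nfkbib, an inhibitor of NF-kappaB, at 83.1 and 55.1 (-0.59) and Tnfaip2 at the other end.

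Lists of general cell machinery and metabolism had medians within 0.04 of 0. Mitochondrial ribosome genes had a median of -0.01 over 70 genes, translation factors 0.01 over 41, spliceosome genes 0.001 over 51 and actin genes -0.004 over 27. Sterol and fatty acid synthesis genes had 0.03 over 29, and glycolysis and hypoxia genes 0.005 over 20, with Hif1a, the hypoxia factor, at 335 and 294 (-0.19). Lysosome and autophagy genes had -0.01 over 39, from Atp6v1h, a proton pump subunit, at 168 and 123 (-0.45) to Wipi1, an early autophagy protein, at 23.7 and 35.9 (0.60). MHC class I and immunoproteasome genes had -0.04 over 16, with Tapbp, the peptide-loading factor tapasin, the highest at 243 and 283 (0.22). NRF2 and oxidative stress genes had 0.01 over 24 by their brightest probe sets, with Nqo1, a quinone reductase, at 27.9 and 35.9 (0.36). The 14 members of that list with a second probe set split 3 higher to 11 lower there, with a median of -0.11, where their brightest probe sets gave 9 to 5 and 0.02. The reading of that list therefore turned with the probe set.

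**Figure D5:**
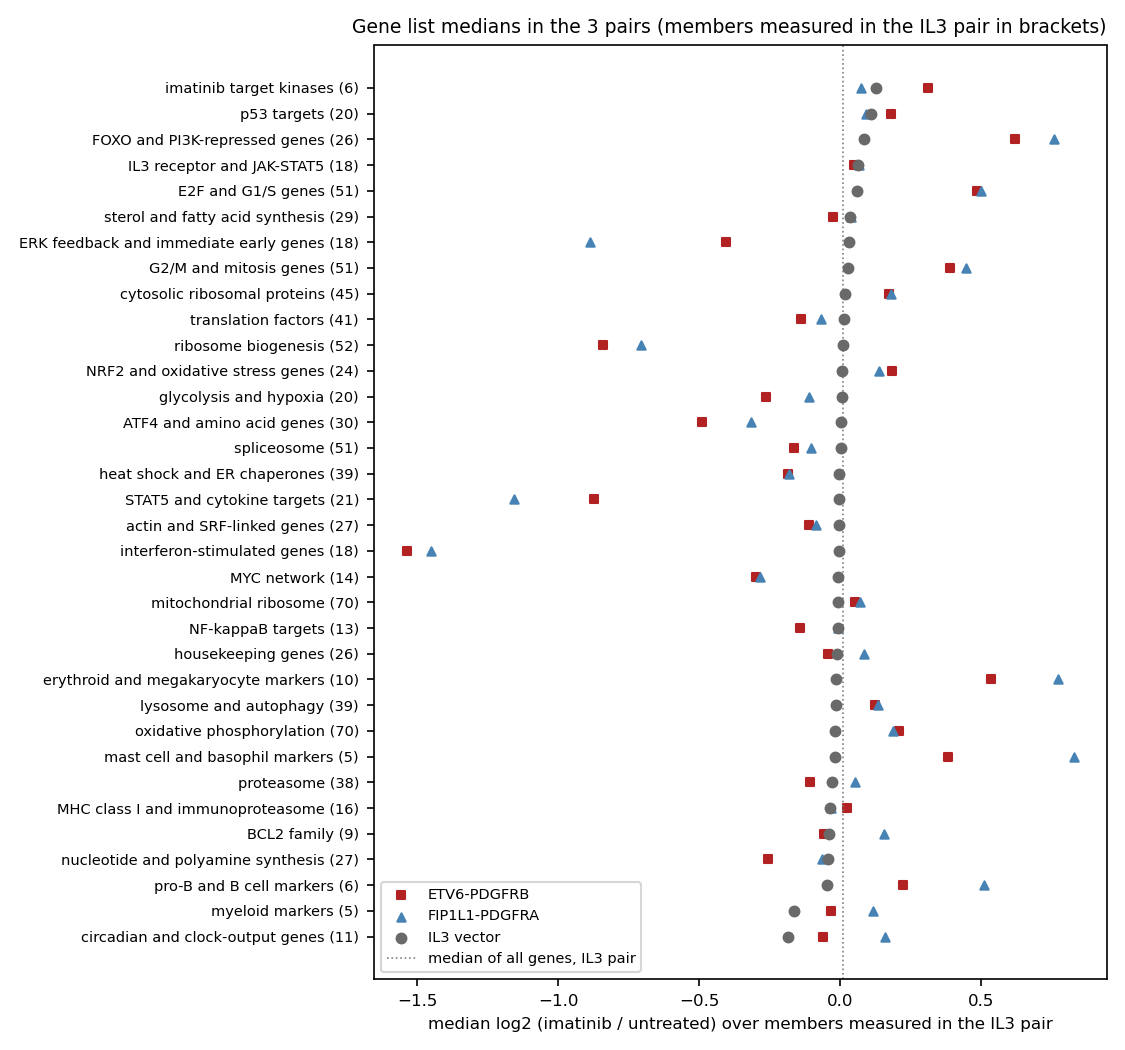
Each row is 1 gene list, with the number of members measured in the vector pair in brackets; the x axis is the median log2 ratio of imatinib over untreated over those members in vector cells (grey circles), ETV6-PDGFRB cells (red squares) and FIP1L1-PDGFRA cells (blue triangles). Lists with at least 5 measured members are drawn. Their vector medians lie between -0.19 (circadian genes) and 0.13 (imatinib targets), while the fusion medians reach below -1.4 for interferon-stimulated genes.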

How the data were processed

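For each of 22690 probe sets the authors deposited a linear intensity, which the submitters' processing notes credit to GCOS 1.4.0 with MAS5. The trimmed mean (2% at each end) was 100.0 on every array, so each had been scaled to a common level, and detection calls were not used here. Probe sets with 1 gene symbol in the platform annotation (20393) gave 12393 genes, each read by its brightest probe set. Signals under the floor (50th percentile) were set to it before log2 ratios were taken. The fit used limma 3.58.1 in R 4.3.3 with Benjamini-Hochberg adjustment at 0.05, for genes that exceeded the floor on 2 or more arrays. It had 1 residual degree of freedom. On simulated data the fit recovered 71% of vector-cell changes of log2 1 and 100% of those of log2 2. On the real arrays, with this floor, it did not call Mpnd at a log2 ratio of 1.675. The simulated recovery is therefore not a measure of power for these arrays. With 1 array a side the list counts and limits (2-fold, 1.5-fold and 25%) carry no test. Named genes were those past 2-fold, the 10 highest and 10 lowest bright genes, genes whose probe sets all passed the 25% limit, members of the target, IL3 receptor and B-cell lists, the 2 highest and 2 lowest of each other list, and the 15 highest and 15 lowest fusion responses. Some further list members were named after their values were seen. Pathway members and lists were chosen with earlier results of these data known. The 38 lists held 1348 entries, of which 1161 matched a gene; the others were not analysed here. The actin 3' to 5' ratio was 1.19 without and 1.15 with imatinib in the vector pair, and the Gapdh ratio 0.762 and 0.782.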

Additional observations from a re-analysis of the deposited data

Results flagged for a closer look

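In 5 genes the vector pair and the fusion pairs differed past 1.5-fold in opposite directions, among 96 genes past 1.5-fold in the vector pair and measured in all pairs. These 5 genes were picked by the same ratios that the limma test below compares, so its p-values for them are descriptions only. Another 7 of the 96 went past 1.5-fold the same way in both fusion pairs. Each is 1 array a side, and limma's test of the difference between the vector and fusion responses did not pass 0.05 for any of the 5 after adjustment, but passed it for all 5 with a pseudocount in place of the floor (limma adjusted p from 0.0052 to 0.0195).

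Agpat5, an acyltransferase of phospholipid synthesis, had a log2 ratio of 0.63 in the vector cells (66.4 untreated, 103 with imatinib) and -1.04 and -0.81 in the ETV6-PDGFRB and FIP1L1-PDGFRA cells (limma adjusted p = 0.163). Zdhhc5, a palmitoyltransferase, had 0.60 (83.4 and 126) against -0.64 and -0.62 (limma adjusted p = 0.163), and its other probe set gave 0.08 in the vector cells. Cdkn1b, the CDK inhibitor p27, had -0.63 (40.2 and 26.0), while in the fusion cells it read 69.3 and 160, and 42.6 and 101 (limma adjusted p = 0.139). Its other probe set was below the floor. Tax1bp3, a PDZ domain protein, had -0.64 (101 and 65.0) against 0.84 and 0.83 (limma adjusted p = 0.163). Rfxank, a subunit of the factor that drives MHC class II genes, had -0.60 (30.8 and 20.3) against 1.15 and at least 0.98 on the log2 scale (limma adjusted p = 0.161). Its second probe set gave -0.59 in the vector cells but -0.08 and -0.57 in the fusion cells, so the opposite direction was seen by 1 probe set only.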

How the results depend on the processing

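The number of vector-cell genes past 2-fold, 9, depended on the floor: 49 with it at the 40th percentile, 2 at the 60th, 3 with a pseudocount in place of the floor, and 5 with only probe sets that carry no suffix. The 97 genes past 1.5-fold became 397, 27 and 32 under the first 3 of these and 55 with the mean over all probe sets of a gene. Limma called 0 genes for imatinib in the vector cells except with the pseudocount, where it called 1, Mpnd (adjusted p = 0.0387). Its test of the difference between vector and fusion responses called 0 genes, but 17 with a trended prior, 10 with the 60th percentile floor and 284 with the pseudocount, among them all 9 genes whose adjusted p of the difference is printed here (0.00331 to 0.0408). Those 9 genes had been named for their ratios on these same arrays, so their passing is no separate support. The median of the homologs of the fusion partners, 0.18 over Etv6 and Fip1l1, was 0.14 with the pseudocount, 0.083 with the mean over probe sets and -0.0098 with only probe sets without a suffix. The IL3 receptor list had -0.093 and the BCL2 family 0.084 at the second probe sets. Over 8 alternatives, which do not include the second probe sets, 30 of 294 list medians took the other sign, in 17 lists. Of the named genes' values 1525 moved by less than the SD between genes, 81 by more, and of the genes past 2-fold 0 turned. Further medians turned at the second probe sets of the same genes, such as p53 targets (0.09 to -0.01) and ribosome biogenesis (0.03 to -0.06). Others, such as the E2F list (0.07 and 0.02), kept their sign. The genes called in the fusion cells, 889, numbered 15 with the 40th percentile floor, 1368 with the trended prior, 1844 with the pseudocount and 553 with only probe sets without a suffix. The treated and untreated array of each line were paired in every fit, since the line was a block. The labels give no replicate numbers, so no block by number was added, and leaving out an array would leave no pair.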
